A study of Homo sapiens with 6 samples.

Results

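The mitochondrial ribosomal proteins described here are the 77 genes, of 25369 in the files, whose symbol is MRPL or MRPS followed by a number and at most 1 letter from A to C. Their symbols put 48 in the large (MRPL) and 29 in the small (MRPS) subunit of the mitochondrial ribosome. Their expression was compared between 3 samples of Caki2+PBRM1 and 3 samples of Caki2+Vector. Caki2 is a human clear cell renal cell carcinoma (ccRCC) line without PBRM1 protein, PBRM1 being a subunit of the PBAF chromatin remodeling complex. Caki2+Vector carried an empty doxycycline-inducible lentiviral vector and Caki2+PBRM1 the same vector with PBRM1, both lines were drug-selected after infection, and both were given doxycycline at 2 µg/mL. Each condition is thus a single transduced line, and whether the lines are clonal is not given in the sources used here. The samples are lettered A, B and C within each group, the labels do not say that these were separate cultures, and the p-values below measure the spread between these samples.

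The mitochondrial ribosome translates the few messages of the mitochondrial genome, all of which encode core subunits of the respiratory chain and of ATP synthase. Its rRNAs are made in the mitochondrion, while all of its proteins are encoded in the nucleus, made in the cytosol and imported. The small subunit holds the mRNA and reads the code, and the large subunit forms the peptide bond and releases the growing chain through the exit tunnel. Many of these proteins have a bacterial counterpart, and the others were added in the lineage that led to mitochondria. The kidney tubule, from which ccRCC arises, is rich in mitochondria, and ccRCC is known for a shift of its metabolism toward glycolysis.

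Poly(A) RNA was sequenced, and 7312955 to 10835355 reads per sample were counted on genes. The values are normalized counts, reads on a gene after division by 1 factor for the whole sample (0.8343 to 1.191), and they are not scaled by gene length. PBRM1 rose from 186.5 ± 7.4 to 2544.9 ± 127.1 (SD, n = 3), in accordance with the labels. Markers of renal epithelium and ccRCC summed to between 31677.8 and 33019.4 over 10 genes per sample, with VIM the highest. VIM was at 14932.8 ± 464.9 in Caki2+Vector and 16905.8 ± 293.8 in Caki2+PBRM1. PAX8, a defining factor of kidney epithelium, was at 2071.6 ± 161.4 in Caki2+Vector and 2093.6 ± 41.2 in Caki2+PBRM1. Low in the same list were PAX2, EPCAM and CA9. Their means were 29.8, 12.3 and 1.6 in Caki2+Vector and 24.8, 16.8 and 10.3 in Caki2+PBRM1. Endothelial markers summed to at most 6.2 over 5 genes, 2 of which were at 0 in every sample, and fibroblast markers to 102.4 to 128.0 over 6 genes. Leukocyte markers summed to 2099.9 to 2369.5 over 6 genes, most of it from CD68, and ITGAM was at 169.5 to 223.9. The other 4 of the 6 were under 10 throughout, and CD3E among them was at 0 in every sample. Caki2+Vector A stood apart from its group. Over genes with reads, the chi-square of 2 replicates divided by its degrees of freedom, which is near 1 where they differ by sampling alone, was 3.14 and 2.86 for the pairs with Caki2+Vector A, 1.35 for Caki2+Vector B and C, and 1.19 to 1.22 within Caki2+PBRM1.

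Of the 77 genes, 76 reached a normalized count of 10 in 3 or more samples, as 13303 genes did in all. Each was tested as log2(normalized count + 1) with limma's moderated test, and a gene past an adjusted p of 0.05 (Benjamini-Hochberg over all 13303 genes) is called lower or higher in Caki2+PBRM1. The mitochondrial ribosomal protein genes moved little and mostly one way. Of 76, 26 (34.2%) fell, 3 (3.95%) rose and 47 did not pass the test, against 13.0% of all genes tested that fell and 16.2% that rose. Their median log2 fold change was -0.12, a change of -8.3%, beside -0.004 for all genes tested, and 89.5% of them were below 0 beside 50.6% of all genes. The range ran from -0.46 for MRPL52 to 0.24 for MRPL55, so that no gene changed as much as a doubling or a halving. In 34 of the 76 every Caki2+PBRM1 sample was lower than every Caki2+Vector sample, a separation seen in 19.6% of all genes, and in 4 every one was higher, beside 22.1% of all genes. In bulk samples such as these, less RNA per cell and fewer cells that express a gene cannot be told apart.

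**Figure D1:**
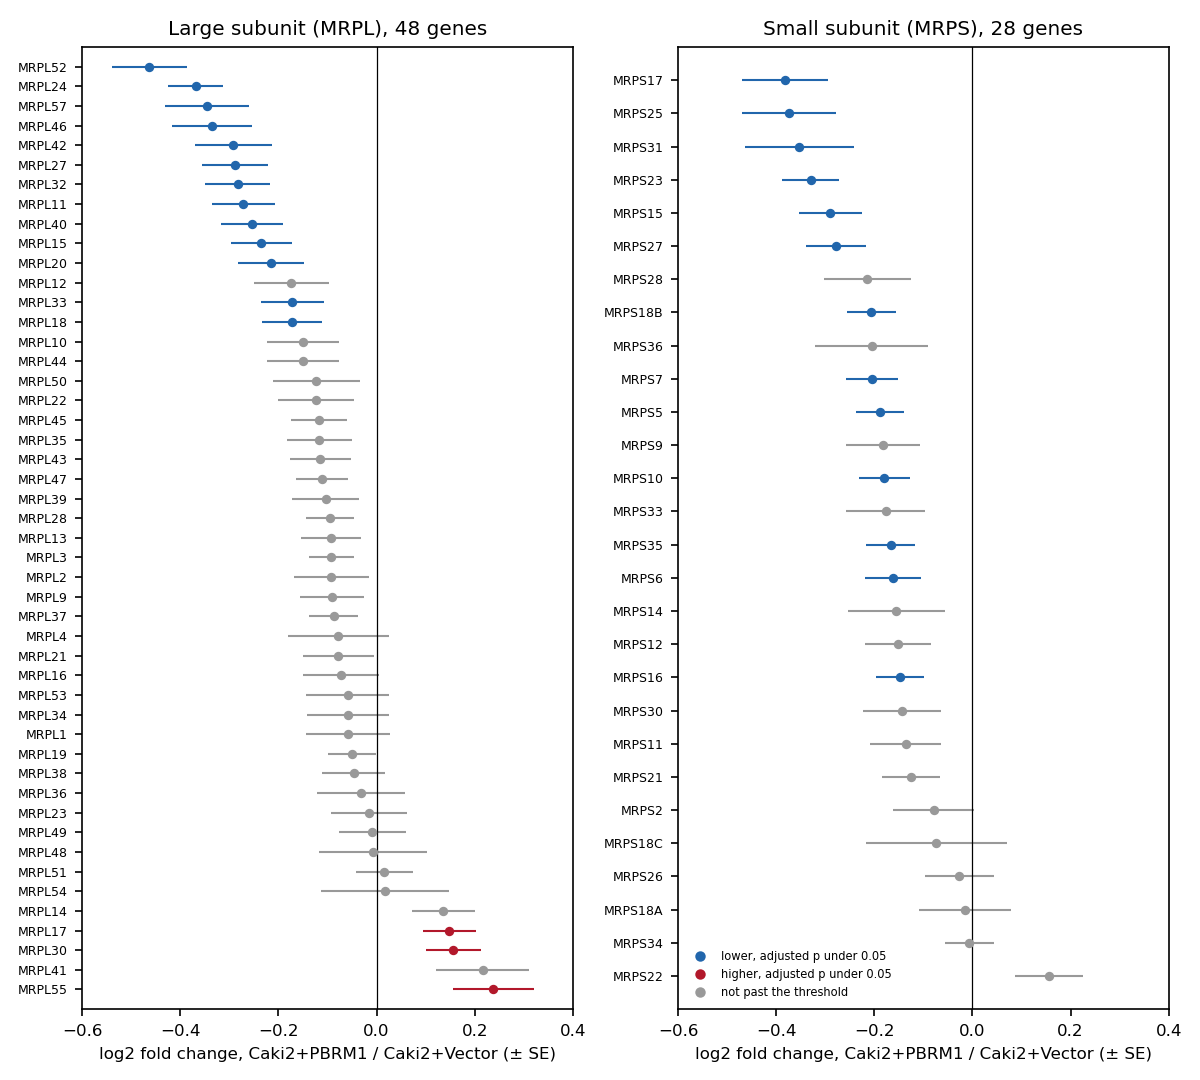
Log2 fold change (Caki2+PBRM1 over Caki2+Vector, x axis) with its SE for each of the 48 large (left) and 28 small (right) subunit genes tested, in order of size, with color for the call at an adjusted p of 0.05. Of the large subunit genes 41 sit below 0, and of the small subunit genes 27 do.

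**Figure D2:**
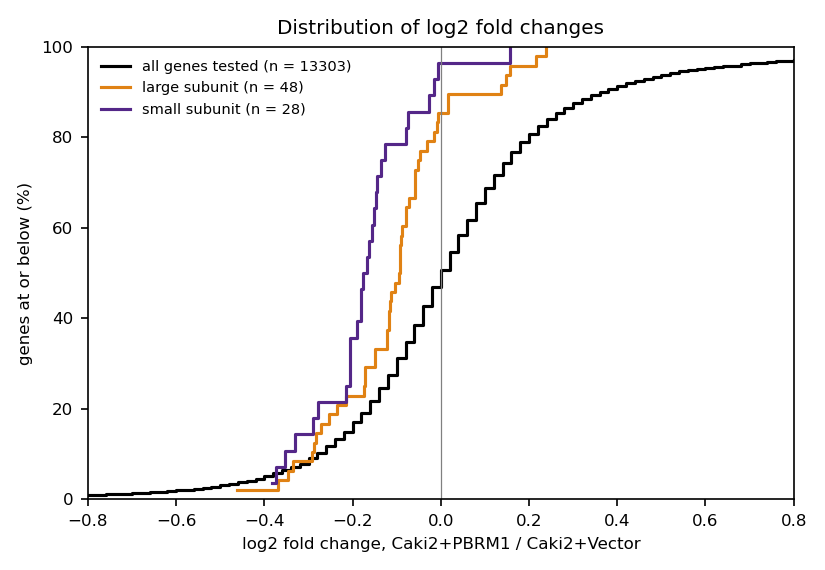
Cumulative share of genes (y axis, %) at or below each log2 fold change (x axis) for the large and small mitochondrial subunits and for all 13303 genes tested. The curve of the small subunit, with a median of -0.172, lies to the left of that of the large subunit, with a median of -0.094, and that of all genes crosses the midpoint at -0.004.

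As a share of each library the genes were also lower. They took 0.46%, 0.456% and 0.451% of the reads in Caki2+Vector A, B and C, and 0.408%, 0.395% and 0.401% in Caki2+PBRM1 A, B and C. The group means differed by -11.9%, and the groups did not overlap. Such a share depends as well on the reads counted on all other genes, and its change exceeds those in normalized counts. In normalized counts, the large subunit summed to 24704.7, 24755.8 and 24142.5 in Caki2+Vector and to 23321.8, 22332.0 and 22771.7 in Caki2+PBRM1, a change of -7.03%. The small subunit summed to 15316.4, 15444.1 and 15343.9 in Caki2+Vector and to 13878.7, 13578.7 and 13680.5 in Caki2+PBRM1, a change of -10.8%. Neither sum overlapped between groups. The ratio of the large to the small sum was 1.61, 1.60 and 1.57 in Caki2+Vector and 1.68, 1.64 and 1.66 in Caki2+PBRM1, so that the summed large subunit RNA was higher relative to that of the small subunit in each Caki2+PBRM1 sample. These sums are given as a description, without a test.

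**Figure D3:**
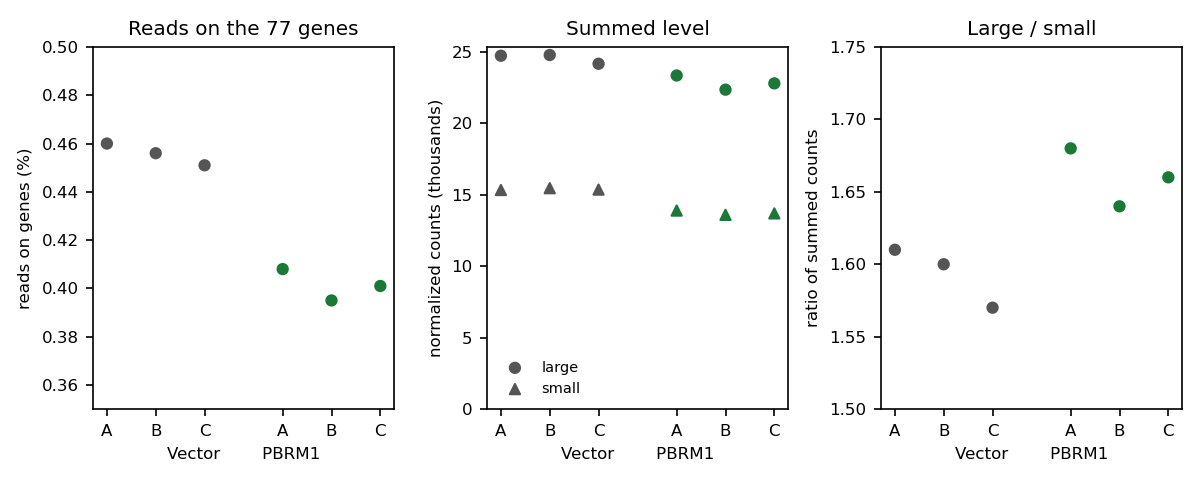
Share of reads on the 77 genes (%), summed normalized counts of the large (circles) and small (triangles) subunit, and the ratio of these sums, each for samples A, B and C of Caki2+Vector and Caki2+PBRM1. The shares lie from 0.451% to 0.46% in Caki2+Vector and from 0.395% to 0.408% in Caki2+PBRM1, and the ratios from 1.57 to 1.61 and from 1.64 to 1.68.

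By subunit, 13 of 48 large subunit genes (27.1%) fell and 3 (6.25%) rose, with a median log2 fold change of -0.094 (-6.3%). Of 28 small subunit genes, 13 (46.4%) fell and none rose, with a median of -0.17 (-11.2%). By limma 1 small subunit gene, MRPS22, rose at an unadjusted p under 0.05 (adjusted p = 0.0936). It was named after its values were seen, which were 346.5, 329.7 and 364.4 in Caki2+Vector and 396.4, 368.0 and 395.3 in Caki2+PBRM1. At an unadjusted p under 0.05, 1 small subunit gene rose by edgeR and none by DESeq2, and none passed the adjusted threshold by either. With the correction for length and GC given below, MRPS22 passed the adjusted threshold. The symbols do not match the place of every protein. MRPS18A and MRPS30 are parts of the large subunit, and MRPS36 is a component of the 2-oxoglutarate dehydrogenase complex. With these assigned by place, 13 of 50 large subunit genes (26.0%) and 13 of 25 small subunit genes (52.0%) fell, with medians of -0.094 and -0.18. Genes are not replicates of a condition, and the difference between the subunits was not tested. The large subunit genes had a median transcript GC of 50.6% and those of the small subunit one of 46.5%, a difference that is taken up below with the library that stood apart.

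Genes with and without a bacterial counterpart had similar counts and medians. Of 45 tested with a counterpart 16 fell and 2 rose, with a median log2 fold change of -0.13, and of 31 without one 10 fell and 1 rose, with a median of -0.12. Within the large subunit the medians were -0.093 for 29 genes with a counterpart and -0.10 for 19 without. Within the small subunit they were -0.16 for 16 genes with a counterpart, all 16 of which were below 0, and -0.19 for 12 without.

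The upstream sequences of 5 genes show what lies before genes that fell and genes that rose. They are from RefSeq (GRCh38.p14), were matched by their letters to GRCh37, and cover the 200 bases before the RefSeq start on the strand of the gene. The GENCODE start lies a little before that of RefSeq in MRPL52, MRPL27 and MRPL55, so that the last bases of these stretches are within the GENCODE gene. MRPL52, the gene with the largest decrease, is read from chr14:23298896-23299095 (+), and MRPL27, in which the ETS motif occurs at 2 positions, from chr17:48450546-48450745 (-). MRPS17, the small subunit gene with the largest decrease, is read from chr7:56019370-56019569 (+). MRPL17 and MRPL55, which rose, are read from chr11:6704572-6704771 (-) and chr1:228297001-228297200 (-). Capitals mark motifs of 8 letters that were searched for on both strands. These are AAGATGGC, bound by YY1, CCGGAAGT, bound by ETS factors such as GABPA, and GCGCATGC, from the site of NRF1, which overlaps its own reverse complement. MRPL52 holds the YY1 motif at 2 positions after 1 of NRF1 on the other strand. MRPL27 holds the ETS motif and MRPL17 the NRF1 motif, which overlaps its reverse complement in the first marked run. MRPS17 and MRPL55 hold none of them here.
MRPL52: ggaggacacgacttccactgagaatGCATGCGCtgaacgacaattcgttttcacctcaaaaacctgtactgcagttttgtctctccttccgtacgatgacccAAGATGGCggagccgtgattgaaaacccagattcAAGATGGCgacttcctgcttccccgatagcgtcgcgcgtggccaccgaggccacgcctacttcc
MRPL27: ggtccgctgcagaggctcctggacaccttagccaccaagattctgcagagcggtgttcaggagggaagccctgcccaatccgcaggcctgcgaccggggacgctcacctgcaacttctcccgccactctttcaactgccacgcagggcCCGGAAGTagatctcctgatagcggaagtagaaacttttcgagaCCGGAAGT
MRPS17: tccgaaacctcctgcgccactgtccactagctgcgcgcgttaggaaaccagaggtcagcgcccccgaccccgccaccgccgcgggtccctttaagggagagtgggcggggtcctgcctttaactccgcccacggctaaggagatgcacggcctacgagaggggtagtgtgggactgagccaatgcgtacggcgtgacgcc
MRPL17: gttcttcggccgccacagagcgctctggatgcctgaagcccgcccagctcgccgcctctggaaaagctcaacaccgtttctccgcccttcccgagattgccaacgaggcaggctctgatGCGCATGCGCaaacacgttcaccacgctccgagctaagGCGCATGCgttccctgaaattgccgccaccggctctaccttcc
MRPL55: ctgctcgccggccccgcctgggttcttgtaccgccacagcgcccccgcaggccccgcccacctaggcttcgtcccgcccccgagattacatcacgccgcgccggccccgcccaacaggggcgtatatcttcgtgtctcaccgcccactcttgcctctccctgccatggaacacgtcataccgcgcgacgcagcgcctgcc

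NRF1, GABPA and YY1 are factors known to act at nuclear genes of mitochondrial proteins. In windows of 300 bases (250 before and 50 after the start), which RefSeq gives for 68 of the 77 genes, the YY1 motif was found in 21 (30.9%) beside 6.48% of 9825 tested genes with a window. The ETS motif was found in 12 (17.6%) beside 9.71%, and the NRF1 motif in 6 (8.82%) beside 6.41%. Genes that fell held a motif about as often as those that did not pass the test. Any of the 3 was present in 11 of 25 genes that fell (44%) and in 17 of 39 that did not pass (43.6%), and of the 3 that rose MRPL17 had one. By subunit, the ETS motif was in 10 of 41 large and 2 of 27 small subunit windows, and the YY1 motif in 13 and 8. A match of letters is a description and shows no binding.

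Among large subunit genes the decrease was largest in MRPL52 (14:23299088-23304246, plus strand), which encodes a protein with no bacterial counterpart. Its normalized counts were 378.7, 367.5 and 339.2 in Caki2+Vector A, B and C and 277.3, 248.0 and 261.0 in Caki2+PBRM1 A, B and C. Every Caki2+PBRM1 sample was lower, and it fell by 0.46 on the log2 scale (SE 0.076, adjusted p = 2e-05 by limma), a change of -27.5%. MRPL24 (1:156707095-156711382, minus strand) encodes a protein of the rim of the exit tunnel. Its normalized counts were 758.3, 731.3 and 741.9 in Caki2+Vector and 606.6, 566.2 and 555.6 in Caki2+PBRM1, again without overlap. It fell by 0.37 (SE 0.056, adjusted p = 7.2e-06 by limma), the smallest adjusted p of the family.

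MRPL57, a small protein of the large subunit with no bacterial counterpart, had 247.1, 287.2 and 272.1 in Caki2+Vector and 202.6, 202.7 and 228.3 in Caki2+PBRM1. The groups were separate, and MRPL57 fell by 0.35 (adjusted p = 0.00243 by limma). MRPL32, a counterpart of a bacterial protein that is cleaved by a mitochondrial protease as it matures, had 479.0, 456.3 and 490.2 in Caki2+Vector and 376.9, 416.0 and 378.5 in Caki2+PBRM1. It fell by 0.28 (adjusted p = 0.00146), also without overlap. MRPL42 and MRPL15 fell by 0.29 and 0.24, with adjusted p of 0.00507 and 0.00421. The other large subunit genes that fell were MRPL11, MRPL18, MRPL20, MRPL27, MRPL33, MRPL40 and MRPL46, all by 0.17 to 0.34 on the log2 scale. In MRPL33 the groups overlapped although it passed the test (adjusted p = 0.0449).

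The central protuberance is the crown of the large subunit, which faces the head of the small subunit. Of its 6 listed proteins, 4 fell by limma, beside 27.1% of large subunit genes and 13.0% of all genes. In each of 3 other fits 3 of the 6 fell, and MRPL18 did not pass. These were DESeq2, limma without Caki2+Vector A, and limma with the correction for length and GC. In these fits 7.95%, 14.4% and 16.4% of all genes fell. MRPL46 had 298.2, 266.4 and 269.7 in Caki2+Vector and 212.3, 215.1 and 232.5 in Caki2+PBRM1. It was lower in each Caki2+PBRM1 sample, by 0.34 (adjusted p = 0.00214 by limma). MRPL27, which reaches from the protuberance toward the site of peptide bond formation, had 449.7, 434.6 and 420.7 in Caki2+Vector and 340.1, 364.4 and 364.3 in Caki2+PBRM1. It fell by 0.29 (adjusted p = 0.00145), and its upstream sequence above holds the ETS motif at both marked places. MRPL40 fell by 0.25 (adjusted p = 0.00278) and MRPL18 by 0.17 (adjusted p = 0.0347), each with separate groups. MRPL38 and MRPL48 had log2 fold changes of -0.047 and -0.007 and did not pass the test (adjusted p = 0.638 and 0.973). The median of the 6 was -0.21 with all samples, -0.174 without Caki2+Vector A and -0.124 with the correction for length and GC.

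At the stalk, which recruits the translation factors, MRPL11 of the stalk base fell by 0.27 (adjusted p = 0.0015 by limma), from 557.3 ± 33.2 to 461.1 ± 23.2 (SD, n = 3). MRPL10, which anchors the stalk, and MRPL12, the stalk protein itself, had log2 fold changes of -0.15 and -0.17 and did not pass the test (adjusted p = 0.133 and 0.0971). MRPL12 was at 712.9, 895.6 and 849.8 in Caki2+Vector, of which A lay below 2 of the 3 Caki2+PBRM1 samples, at 757.1, 657.7 and 758.7. Without Caki2+Vector A MRPL12 fell by 0.27 (adjusted p = 4.79e-05 by limma), and all 3 stalk genes then passed the test. In that fit 14.4% of all genes fell. Without Caki2+Vector B MRPL10 and MRPL12 were at -0.147 and -0.106 (adjusted p = 0.22 and 0.346 by limma). With all samples neither passed by DESeq2 (adjusted p = 0.304 and 0.128).

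The 6 listed genes of the tunnel exit did not move together. MRPL24 fell, as given above, and MRPL17 rose. MRPL22, MRPL45 and MRPL47, the last of which lies next to the exit where the new chain meets the inner membrane machinery, had log2 fold changes of -0.12, -0.12 and -0.11 with separate groups and did not pass the test (adjusted p = 0.244, 0.126 and 0.113 by limma). MRPL23 was at -0.015 (adjusted p = 0.91).

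The 3 genes that rose all belong to the large subunit. MRPL55, which has no bacterial counterpart, had 232.9, 264.5 and 220.5 in Caki2+Vector and 286.0, 284.4 and 274.4 in Caki2+PBRM1. It rose by 0.24 (SE 0.082, adjusted p = 0.0285 by limma). MRPL30 had 622.0, 588.6 and 628.0 in Caki2+Vector and 655.3, 687.1 and 706.7 in Caki2+PBRM1, and rose by 0.16 (adjusted p = 0.037). MRPL17 had 781.0, 759.6 and 697.6 in Caki2+Vector and 839.5, 816.8 and 820.8 in Caki2+PBRM1, and rose by 0.15 (adjusted p = 0.0395). The groups were separate in all 3, but none of the 3 passed the test in every fit that left out 1 sample, and none passed with DESeq2, by which 20 of the family fell. By DESeq2 7.95% of all genes fell and 11.2% rose.

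Among small subunit genes, MRPS17 (7:56019570-56024193, plus strand), a primary rRNA-binding protein with a bacterial counterpart, had the largest decrease. It had 256.6, 227.7 and 267.3 in Caki2+Vector and 184.1, 185.8 and 205.6 in Caki2+PBRM1. The groups were separate, and it fell by 0.38 (SE 0.088, adjusted p = 0.0013 by limma), a change of -23.2%. MRPS23 (17:55912142-55927417, minus strand), which has no bacterial counterpart, had 765.9, 741.6 and 677.2 in Caki2+Vector and 591.4, 581.3 and 563.2 in Caki2+PBRM1. It fell by 0.33 (SE 0.058, adjusted p = 5.9e-05), the smallest adjusted p of the small subunit.

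MRPS25 had 211.1, 186.1 and 210.9 in Caki2+Vector and 160.3, 142.2 and 166.2 in Caki2+PBRM1, and fell by 0.37 (adjusted p = 0.00331 by limma). Of its exon bases 18.6% overlap those of NR2C2. MRPS31, at 209.2, 196.5 and 170.2 against 123.5, 168.9 and 160.3, fell by 0.35 (adjusted p = 0.017), and its SE of 0.111 was the largest among the small subunit genes that fell and are named here. Both proteins are specific to mitochondria. MRPS15, a counterpart of a bacterial rRNA-binding protein, fell by 0.29 (adjusted p = 0.000853), from 630.3 ± 30.6 to 516.0 ± 43.7 (SD, n = 3). MRPS27, a pentatricopeptide repeat protein, fell by 0.28 (adjusted p = 0.000716), from 631.6 ± 28.2 to 520.8 ± 27.8, and MRPS7, which organizes the head of the subunit in bacteria, fell by 0.21 (adjusted p = 0.00362). The other small subunit genes that fell were MRPS5, MRPS6, MRPS10, MRPS16, MRPS18B and MRPS35, all by 0.15 to 0.21. The groups overlapped in MRPS6, of whose exon bases 18% are shared with SLC5A3.

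**Figure D4:**
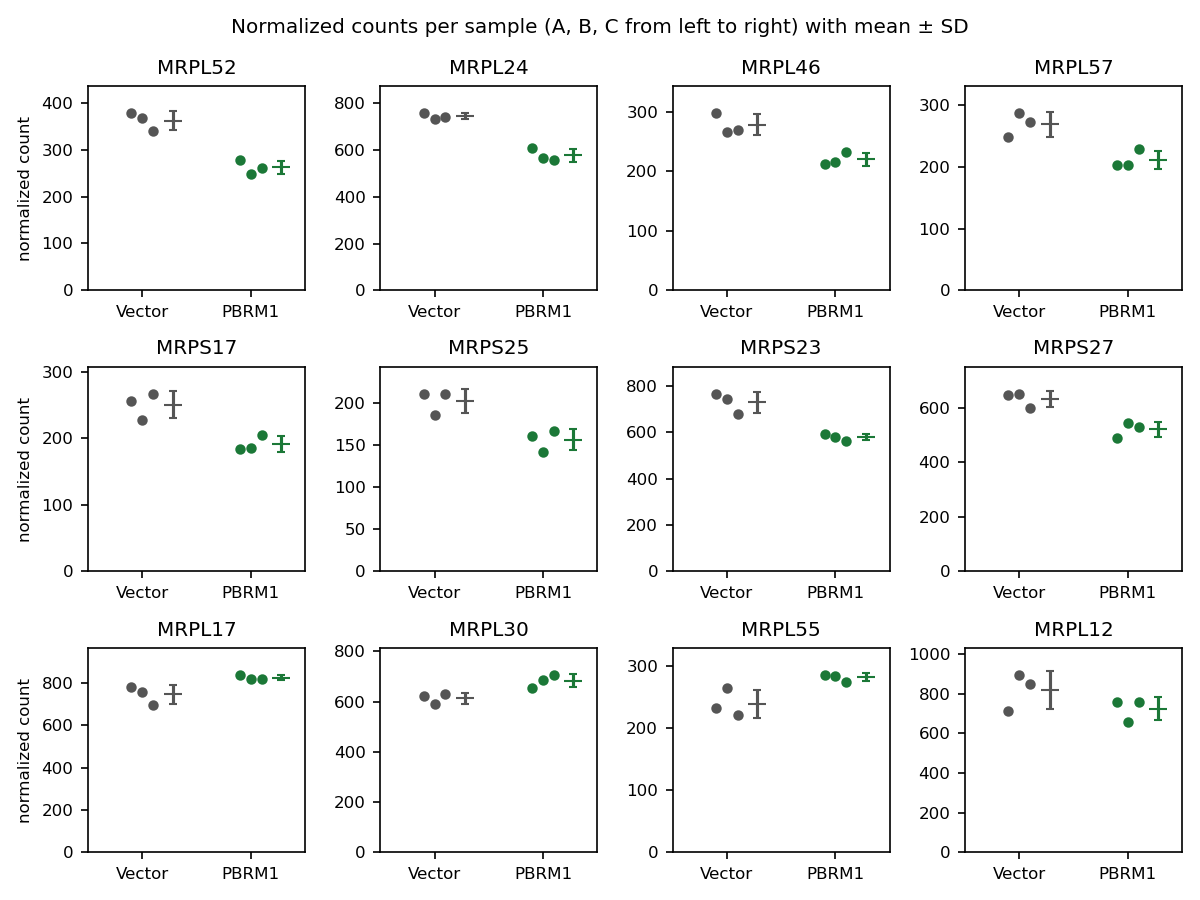
Normalized counts (y axis, from 0) of single genes in samples A, B and C of Caki2+Vector and Caki2+PBRM1, with the group mean and SD. The samples of MRPL52 lie at 339.2 to 378.7 against 248.0 to 277.3, while those of MRPL55 lie at 220.5 to 264.5 against 274.4 to 286.0.

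The 3 S18 paralogs descend from a single bacterial protein and take different places in the ribosome. MRPS18B fell by 0.21 (adjusted p = 0.00223 by limma), from 1048.1 ± 45.5 to 908.3 ± 25.8 (SD, n = 3). MRPS18C, the least abundant of the 3 per kb of exon, was at 87.7 ± 10.8 and 83.9 ± 16.1 (log2 fold change -0.074, adjusted p = 0.746). MRPS18A, which sits in the large subunit, was at 343.4 ± 59.7 and 336.6 ± 18.2 (log2 fold change -0.016, adjusted p = 0.921), and 60.6% of its exon bases overlap RSPH9. MRPS30, the other S-named protein of the large subunit, had a log2 fold change of -0.14 (adjusted p = 0.177), and MRPS36 one of -0.21 (adjusted p = 0.19).

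Of the 6 genes with the highest counts, 3 in each subunit, MRPS16 and MRPS18B fell and the other 4 did not pass the test. MRPL3 had 1628.3, 1535.3 and 1613.3 in Caki2+Vector and 1548.9, 1440.8 and 1491.4 in Caki2+PBRM1, with a log2 fold change of -0.092 (adjusted p = 0.125 by limma) and groups that overlapped. MRPL28 was at -0.095 (adjusted p = 0.152), and MRPL51, at 1067.5 ± 96.4 and 1077.2 ± 60.5 (SD, n = 3), at 0.016 (adjusted p = 0.871). In the small subunit, MRPS34, at 1147.8 ± 68.5 and 1141.6 ± 34.1, was at -0.007 (adjusted p = 0.942), while MRPS16 fell by 0.15 (adjusted p = 0.0225). Of the exon bases of MRPS34, 32.6% are shared with EME2. Levels per kb of the canonical transcript allow genes to be compared with each other, though they depend on which transcript is taken. The highest in Caki2+Vector were 1380 normalized counts for MRPL33, 1190 for MRPL51 and 1150 for MRPS34.

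MRPS24, the gene that did not pass the filter, had 0 reads in each Caki2+Vector sample and 0, 1 and 1 reads in Caki2+PBRM1 A, B and C. It shares 90.9% of its exon bases with the readthrough gene URGCP-MRPS24, which was at 0 in every sample as well. How reads in shared exons were treated is not given in the sources used here, and the values of MRPS24 are therefore no measure of its RNA. The same limit touches MRPL53, of whose exon bases 99.2% are shared with CCDC142 and which had a log2 fold change of -0.059 (adjusted p = 0.651 by limma).

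Caki2+Vector A differed from B and C along with the GC content of the transcript. Over the 76 genes tested, its log2 difference from the mean of B and C had a Pearson r of -0.60 and a Spearman rho of -0.54 with GC. Over the 12100 tested genes with a matched annotation these were -0.41 and -0.49. These are correlations across genes that share the same libraries and are descriptions. The cut at 55% GC below was chosen after the values were seen. None of the 18 mitochondrial ribosomal protein genes with a GC of at least 55% fell, and 1 rose, with a median log2 fold change of -0.053, while 2 fell at an unadjusted p under 0.05 by limma, and none fell past the threshold by edgeR or DESeq2. In 15 of these 18 Caki2+Vector A was lower than the mean of B and C. Without Caki2+Vector A, 5 of them fell and the median was -0.11. Among the 58 genes under 55%, 26 fell with all samples and 26 fell without Caki2+Vector A, with medians of -0.16 and -0.14. The log2 fold change itself had an r of 0.26 with GC over the 76 genes with all samples and of 0.03 without Caki2+Vector A. Over the 12100 genes its r with GC was 0.0 with all samples.

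Without Caki2+Vector A, 31 of the 76 genes fell, beside 14.4% of all genes, and 3 rose. MRPL18 and MRPL33 no longer passed the test, and MRPL4, MRPL10, MRPL12, MRPL28, MRPS2, MRPS12 and MRPS30 did. The large subunit then had 15 and the small subunit 16 genes that fell. With a correction of each sample for transcript length and GC, 24 genes fell and 6 rose, beside 16.4% and 19.4% of all genes with an annotation, and the median was -0.083. This correction moved both subunits by a like amount, to medians of -0.039 and -0.116. After it the log2 fold change still had an r of 0.27 with GC over the 76 genes. Of the 26 genes that fell, 16 did so in every fit that was run, among them MRPL24, MRPL52, MRPS17 and MRPS23, and all 26 had a negative log2 fold change in every one.

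**Figure D5:**
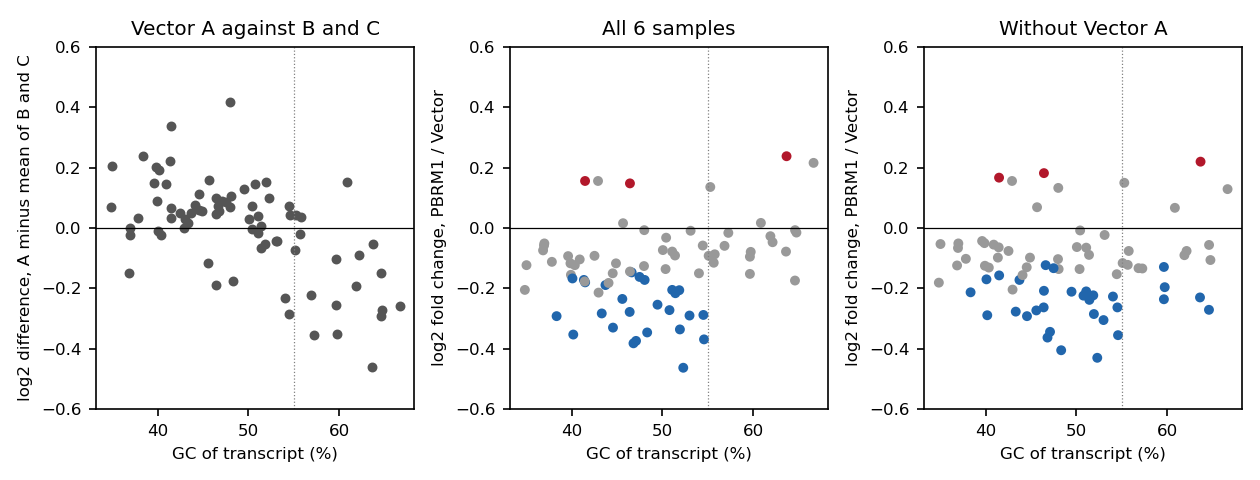
For each gene tested, the log2 difference of Caki2+Vector A from the mean of B and C, and the log2 fold change with all samples and without Caki2+Vector A (y axes), against the GC content of the transcript (x axis, %, with a dotted line at 55%). The points of the first panel slope downward (r = -0.60), those of the second slightly upward (r = 0.26), and those of the third hardly at all (r = 0.03).

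The other genes of mitochondrial translation, together with regulators of mitochondrial transcription and biogenesis, were listed by function. Of 77 tested over 5 lists, 15 fell by limma, a larger share than the 13.0% of all genes. By DESeq2 6 of the 77 fell, a share near the 7.95% of all genes. None rose by limma, edgeR or DESeq2, also at an unadjusted p under 0.05. Of all genes 16.2%, 16.5% and 11.2% rose past the adjusted threshold by these tests. Of 6 ribosome subunits that carry other symbols, 2 fell by limma (33.3%) and 1 by DESeq2, with a median log2 fold change of -0.035 by limma. DAP3, a GTP-binding protein of the small subunit, had 1091.5, 925.9 and 937.3 in Caki2+Vector and 823.2, 808.0 and 778.0 in Caki2+PBRM1. It was lower in each Caki2+PBRM1 sample and fell by 0.29 (adjusted p = 0.000278 by limma). CHCHD1, also of the small subunit, fell by 0.21 (adjusted p = 0.0327).

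Of 25 genes of ribosome assembly and rRNA modification, 3 fell (12%), no larger a share than the 13.0% of all genes, with a median of -0.11, and by DESeq2 1 fell. The 3 were RBFA, a maturation factor of the small subunit, NGRN, which acts on the large rRNA, and FTSJ2, an rRNA methyltransferase, by 0.31, 0.21 and 0.19 (adjusted p = 0.023, 0.000585 and 0.0285 by limma). Of 16 translation factors 4 fell (25.0%), with a median of -0.11, and by DESeq2 1 fell. SLIRP, which stabilizes mitochondrial mRNAs, fell by 0.31 (adjusted p = 0.00232), GFM2, a ribosome recycling factor, by 0.20 (adjusted p = 0.0354), and the other two were OXA1L and MTIF2. Of 17 mitochondrial aminoacyl-tRNA synthetases 3 fell (17.6%), with a median of -0.073, and by DESeq2 2 fell. NARS2 and HARS2 fell by 0.41 and 0.28 (adjusted p = 0.0166 and 0.00123). FTSJ2, OXA1L and MTIF2 are named after their values were seen.

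Of 13 regulators of mitochondrial transcription and biogenesis 3 fell by limma (23.1%), beside 13.0% of all genes. By DESeq2 1 of them fell, beside 7.95% of all genes. MYC, a factor that drives ribosome and mitochondrial biogenesis, had 1106.7, 1168.7 and 1220.1 in Caki2+Vector and 916.4, 959.9 and 957.6 in Caki2+PBRM1. It was lower in each Caki2+PBRM1 sample, by 0.30 (adjusted p = 2.3e-05 by limma). The coactivator PPARGC1B fell by 0.43 (adjusted p = 0.0108) and TFAM, which packages and transcribes mitochondrial DNA, by 0.15 (adjusted p = 0.0178). The factors whose motifs were searched above did not pass the test. NRF1 was at 169.4 ± 4.3 and 178.0 ± 5.5 (log2 fold change 0.071, adjusted p = 0.604), GABPA at 665.9 ± 59.0 and 626.0 ± 9.9 (-0.085, adjusted p = 0.312) and YY1 at 1139.7 ± 73.9 and 1077.4 ± 23.3 (-0.079, adjusted p = 0.253; SD, n = 3). PPRC1, a coactivator, had a log2 fold change of -0.13 (adjusted p = 0.0978).

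Other large families of ribosomal and mitochondrial proteins had similar counts by limma before correction for transcript length and GC, beside the 13.0% of all genes that fell. Of 75 cytosolic ribosomal protein genes tested, 25 fell (33.3%) and none rose by limma (1 at an unadjusted p under 0.05, 1 past the threshold by edgeR and none by DESeq2), with a median log2 fold change of -0.096. Of 76 genes of respiratory chain subunits, 26 fell (34.2%) and 1 rose, with a median of -0.10. After that correction, 15 of 75 cytosolic ribosomal protein genes fell and 5 rose, and 15 of 61 respiratory chain genes with an annotation fell and 8 rose, beside 16.4% and 19.4% of all genes. The medians of these families were then -0.009 and -0.038, beside -0.083 for the mitochondrial ribosomal protein genes, of which 24 of 76 fell and 6 rose. No test of the difference between the families was made.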

How the data were processed

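Each sample's file holds 1 value per gene for 25369 genes. Per the labels and the paper's methods, the authors aligned reads to hg19 with STAR, counted them with HTSeq and normalized the counts with DESeq2. Versions and the strand setting of the counting are not given in the sources used here. The deposited values are a normalized signal, the count of reads divided by a size factor per sample. Whole reads were recovered from the steps between values (100% of values whole within a tolerance of 0.01) and used for depth and count models.

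Groups and letters come from the sample labels. Genes at 10 or more in at least 3 samples were tested with limma 3.58.1 (R 4.3.3; trend and robust) on log2(value + 1), where fold changes of low genes are understated, at an adjusted p of 0.05. The members and lists were chosen with earlier results of these data known. Named members are those that rose, the 10 large and 8 small subunit members with the largest decrease, the structural lists, the 3 of highest count per subunit and those under the filter. From each other list of mitochondrial translation they are the 2 with the largest change each way among those past the threshold, with 6 regulators. Genes outside these rules are named in counts and lists of overlaps.

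Alternatives were pseudocounts of 0.5 and 4, no filter, 10 in every sample, quantile normalization, edgeR 4.0.16 (TMM), DESeq2 1.42.0, voom, the replicate letter as a block, curves per sample for length and GC (span 0.3) with and without the block, an adjusted p under 0.01, each replicate left out, and subunits by place in the ribosome. The comparison of Caki2+Vector A with B and C was added after seeing the data.

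Coordinates, and the length, GC and overlaps of the exons of each gene's canonical transcript, come from GENCODE on GRCh37. They were matched for all 77 members and 91.0% of tested genes. Promoter windows come from RefSeq (GRCh38.p14). The YY1 and NRF1 motifs were shortened to 8 letters after a first search with longer forms, which matched fewer genes. A single gene that is counted in the other lists is not reported by name here. Computations outside R used Python 3.11.15. In a simulated comparison of the groups over 13303 genes, 200 genes drawn from all of them were changed. Of these, 47.8% of 67 changed by 0.3 (log2), 74.6% of 67 changed by 0.6 and 95.5% of 66 changed by 1 were recovered, with 0.685% false calls. In the data 1734 genes were called lower and 2152 higher, so these shares need not hold for the members. A member that did not pass is not shown to be unchanged.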

Additional observations from a re-analysis of the deposited data

How the results depend on the processing

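With all 76 members, the number that fell stayed within 1.5 times of 26 under every alternative, at 19 with an adjusted p under 0.01, 20 with DESeq2 and 20 to 31 with 1 replicate left out (9 to 15 in the large and 11 to 16 in the small subunit). The number that rose, 3, was less stable. It was 0 with an adjusted p under 0.01 and with DESeq2, 1 without the filter and with quantile normalization, and 0 to 3 with 1 replicate left out, all in the large subunit; without Caki2+PBRM1 A or B it was 1 and without Caki2+PBRM1 C it was 0. With the length and GC correction 6 rose (5 large, 1 small) and with the replicate block added 7 rose (6 large, 1 small). In both of these fits the medians were -0.083 for all members, -0.039 for the large and -0.116 for the small subunit. With 1 replicate left out the median of all members ran from -0.139 to -0.124.

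No pairing by replicate letter was seen, as deviations of samples with the same letter had r of 0.006, -0.008 and 0.014. With 3 samples per group these values cannot exclude that samples were prepared in pairs. With the letter as a block (replicate block), 27 members fell, MRPL12 among them, and 3 rose. Of 646 comparisons of 38 named members over 17 alternatives, 577 kept their sign and their side of the threshold, 34 lost the threshold, 9 passed it and 26 changed sign. The sign changes were in 6 members, of which only MRPL51 passed the threshold in any of these fits. It did so with the length and GC correction and the replicate block, at 0.107 (adjusted p = 0.0426 by limma). With the length and GC correction, with or without the replicate block, MRPL23 was at 0.028, MRPL48 at 0.051, MRPS18A at 0.05, MRPS18C at 0.007 and MRPS34 at 0.023, and with quantile normalization MRPL51 was at -0.003. With 1 replicate left out, MRPL23 ran from -0.106 to 0.062, MRPL48 from -0.083 to 0.133, MRPL51 from -0.059 to 0.069, MRPS18A from -0.134 to 0.113, MRPS18C from -0.199 to 0.08 and MRPS34 from -0.056 to 0.025. Precision is limited by 3 samples per group and by depth, with a median SE of 0.069 (log2) over the members, about as large as many of the differences. The cause of these changes with the processing was not tested.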
